A study of Mus musculus with 9 samples.

Results

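The DNA replication and mitosis genes of mouse bone and bone marrow were followed after castration. Members were chosen by gene symbol, not by any measured value. The symbols were those of the helicase, origin, clamp loader and centromere families (Mcm, Orc, Rfc, Gins, Cenp), of the Aurk, Bub, Plk and Kif families, of numbered Cdc and Cdk genes and of A, B and E cyclins, with Mki67, Tacc3, Pcna, Top2a, Skp2, Rrm1 and Rrm2 added. The array held 90 such genes on 146 features, and 82 genes on 134 features had values on at least 2 arrays of each group. Top2a, Cdk14, Cdk18, Cdk20, Kif17, Kif19a, Kif5c and Kifc3 were the 8 genes left out. The 82 members stood among 4775 named genes and 7170 rows tested, a row being 1 gene or 1 feature that no single gene could be assigned to. By known role, 62 members act in DNA replication or mitosis, while 20 share only the name pattern (for example Cdc42, a GTPase of the cytoskeleton, and Kif3b, a motor of cilia).

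Each two-colour array compared a castrated with a sham-operated C57BL/6 mouse, castration having been done at 7 weeks. There were 3 arrays of old mice aged 59 weeks, from specimens labelled bone marrow, 3 arrays of young bone at 17 weeks and 3 arrays of young marrow at 17 weeks. The bones were femur, tibia and humerus, and 30 µg of total RNA went into each labelling. Each array of a group was a separate pair of mice. The labels do not say whether the 2 young tissues share mice, nor how much bone the old specimens held.

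DNA replication begins when origin recognition proteins and Cdc6 load the ring of Mcm2 to Mcm7 onto DNA, and Cdc45 and the Gins proteins turn that ring into a running helicase. Pcna is the sliding clamp of the polymerases, loaded by the Rfc complex. Cyclins with their kinases start S phase and mitosis, centromere proteins attach chromosomes to the spindle, and kinesins move chromosomes and complete division. In marrow, these genes are high in dividing precursors of red cells, B cells and granulocytes and low in mature cells. In a bulk sample, fewer dividing cells and less of these RNAs per cell cannot be told apart.

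The deposited values were log ratios, read here as log2. Between 8290 and 10995 features had a value on an array. The labels described every array as castrated against sham, and the ratio was therefore read as castrated over sham, so that a positive value is higher in the castrated mouse. Castrated RNA carried Cy5 on 6 arrays and Cy3 on the other 3, here called swapped: old marrow 2, young bone 3 and young marrow 2. The labels make this direction likely and do not state it, so every comparison was also computed with the sign of those 3 arrays turned (the channel reading, Cy5 over Cy3). The strongest signals of the arrays kept 1 sign over both dye orientations as deposited: the median of 7 B lineage genes was above 0 and that of 8 granulocyte genes below 0 on all 9 arrays. Castrated over sham, 7 of the 7 and 8 of the 8 passed as an average castration effect by limma, while under the channel reading 0 did, and 7 and 6 passed as a dye effect. These 2 lists were chosen with earlier results of these data known. Over all 7170 rows, 280 passed as an average castration effect and 0 as a dye effect castrated over sham. Under the channel reading these counts were 0 and 187. On the 6 unswapped arrays both readings are the same. No pair of arrays of the same orientation correlated below -0.21 over the rows. Pairs of opposite orientation ran from -0.293 (old marrow 1 with young marrow 2) to 0.554 (old marrow 1 with old marrow 2). The spread of values was 0.19 to 0.291 (SD across rows) on 8 arrays and 0.458 on old marrow 1, where the median of all rows was -0.11. Log ratios carry no level, so the labelled tissues could not be checked against the level of their marker genes.

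No member passed the test for a castration effect, but the replication and mitosis genes moved together from array to array. Averaged over the 3 groups, 0 of 82 members passed (limma, Benjamini-Hochberg adjusted p under 0.05), where 3.91% of all rows did. At an unadjusted p under 0.05 the average held 5 members by limma, 2 above 0 and 3 below, against 7% and 9.04% of all rows. In old marrow 0 members passed, against 0.851% of rows, in young bone 0 against 0.321%, and in young marrow 0 against 0.739%. At an unadjusted p under 0.05 limma gave 1 member above and 2 below 0 in old marrow (9.48% and 8.98% of rows), 0 and 4 in young bone (4.27% and 4.25%), and 5 and 0 in young marrow (5.79% and 4.46%). The members' shares lay below those of all rows in the average and in old marrow, and near them in young bone and young marrow. Under the channel reading 0 members and 0 rows (0%) passed in any of the 3 groups or in the average. At an unadjusted p under 0.05 that reading gave, by limma, 0 members above and 11 below 0 in the average (1.49% and 3.21% of rows), 0 and 2 in old marrow (0.725% and 1.65%), 1 and 13 in young bone (2.65% and 3.91%), and 0 and 0 in young marrow (0.558% and 0.223%). The members below 0 in the average and in young bone were then a larger share of the 82 than of all rows.

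The 5 genes that mark dividing cells gave average effects near 0. Mki67, a coat protein of mitotic chromosomes, stood at 0.10, 0.36 and -0.62 on old marrow 1 to 3, at -0.22, -0.34 and 0.37 in young bone and at -0.02, 0.35 and -0.37 in young marrow. Mcm5, a helicase subunit, stood at -0.08, -0.34 and -0.32 in old marrow, at -0.10, -0.77 and 0.34 in young bone and at 0.04, 0.25 and -0.24 in young marrow. In both genes the young groups held values on either side of 0, and their highest young value was on a swapped array. Kif23, a kinesin of the midzone of the dividing cell, stood at -0.21, -0.03 and -0.34 in old marrow, at 0.03, -0.43 and 0.35 in young bone and at 0.05, 0.22 and -0.27 in young marrow. Tacc3, which steadies spindle microtubules, and Cdc45, the helicase activator, had the same shape. Tacc3 was -0.17, -0.21 and -0.29 in old marrow, -0.01, -0.45 and 0.56 in young bone and 0.02, 0.40 and -0.48 in young marrow. Cdc45 was -0.29, -0.48 and -0.21 in old marrow, -0.19, -0.72 and 0.28 in young bone and 0.05, 0.19 and -0.11 in young marrow. The fitted averages were 0.057 (SE 0.079) for Mki67, 0.010 (SE 0.088) for Tacc3, -0.007 (SE 0.068) for Kif23, -0.081 (SE 0.096) for Mcm5 and -0.12 (SE 0.089) for Cdc45, with limma adjusted p from 0.598 for Cdc45 to 0.98 for Kif23. Under the channel reading the same averages were -0.30, -0.24, -0.19, -0.16 and -0.12, each at a limma adjusted p of 0.893.

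Mcm5, Kif23 and Mki67 have promoters that show the sequence elements by which cell cycle genes are known to be timed. The promoters are printed because the replication and mitosis genes moved together across the arrays. Pearson's r with the median of the other replication and mitosis genes was 0.89 for Mcm5, 0.91 for Kif23 and lower, 0.61, for Mki67. E2F factors bind sites such as TTTGGCGC, TTTCGCGC, TTTCCCGC and TTTGCCGC in genes of DNA synthesis. Genes of mitosis often hold a CCAAT box, bound by NF-Y, and a CHR element, TTTGAA, bound by the DREAM and MuvB complexes. The sequences are from RefSeq (mouse build GRCm38.p6), run from 250 bases before to 50 bases after the gene start, and are written 5′ to 3′ on the strand of the gene. They lie at chr8:75109259-75109558 on the plus strand for Mcm5, at chr9:61946750-61947049 on the minus strand for Kif23 and at chr7:135716330-135716629 on the minus strand for Mki67. Capitals mark every match to these strings on either strand, overlapping matches joined.
Mcm5: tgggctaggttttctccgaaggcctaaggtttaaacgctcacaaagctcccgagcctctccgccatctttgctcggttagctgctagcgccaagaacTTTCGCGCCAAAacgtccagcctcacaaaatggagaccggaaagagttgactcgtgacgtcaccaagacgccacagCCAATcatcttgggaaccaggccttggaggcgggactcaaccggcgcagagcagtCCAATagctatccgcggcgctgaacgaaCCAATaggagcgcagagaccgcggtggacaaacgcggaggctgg
Kif23: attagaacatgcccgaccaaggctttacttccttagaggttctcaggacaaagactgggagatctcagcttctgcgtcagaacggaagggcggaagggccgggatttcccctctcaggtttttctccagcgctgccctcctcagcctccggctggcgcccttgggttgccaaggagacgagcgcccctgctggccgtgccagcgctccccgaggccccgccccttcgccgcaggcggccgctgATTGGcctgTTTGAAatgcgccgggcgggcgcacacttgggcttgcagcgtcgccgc
Mki67: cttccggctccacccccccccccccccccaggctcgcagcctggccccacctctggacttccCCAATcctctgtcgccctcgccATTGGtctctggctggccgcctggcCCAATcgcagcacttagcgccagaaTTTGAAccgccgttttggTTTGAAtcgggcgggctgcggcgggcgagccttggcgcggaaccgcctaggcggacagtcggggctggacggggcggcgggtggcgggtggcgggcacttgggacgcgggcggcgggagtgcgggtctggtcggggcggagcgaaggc
Mcm5 held 2 overlapping E2F strings and 3 CCAAT boxes and no CHR, Kif23 a CCAAT box just before a CHR, and Mki67 3 CCAAT boxes and 2 CHR elements. Of the 82 members, 75 had a promoter in the table, 57 of them with a replication or mitosis role. An E2F string was present in 13 of these 57 (22.8%) and in 7 of the 13 origin and helicase genes (53.8%), against 2.6% of all 27025 promoters of the same length. A CCAAT box was present in 42 of 57 (73.7%, against 41.1% of all promoters) and a CHR in 20 of 57 (35.1%, against 20.2%). Among the kinesins and spindle genes 7 of 8 (87.5%) held a CHR. In the other replication and mitosis roles the share with a CHR ran from 0 of 4 clamp and nucleotide genes to 3 of 8 mitotic kinase and checkpoint genes (37.5%). An E2F string was in 0 of these 4 and 0 of these 8 genes. It was in 3 of 10 cyclin and kinase genes, 2 of 14 centromere genes and 1 of 8 kinesin and spindle genes. Among the members of other families 1 of 18 (5.6%) held an E2F string. A match describes letters in this window only.

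Across the 9 arrays the 62 replication and mitosis genes followed a common profile. Their median log ratio was -0.20, -0.092 and -0.15 on old marrow 1 to 3, -0.060, -0.30 and 0.18 on young bone 1 to 3, and 0.060, 0.21 and -0.080 on young marrow 1 to 3. The median of all rows lay between -0.11 and 0.010 on the same arrays. All 3 old arrays were therefore below 0, while each young group held arrays on both sides, and the 2 highest arrays were the swapped ones of young bone and young marrow. The 20 members of other families showed no such profile, with medians from -0.19 on old marrow 1 to 0.060 on young bone 3.

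**Figure D1:**
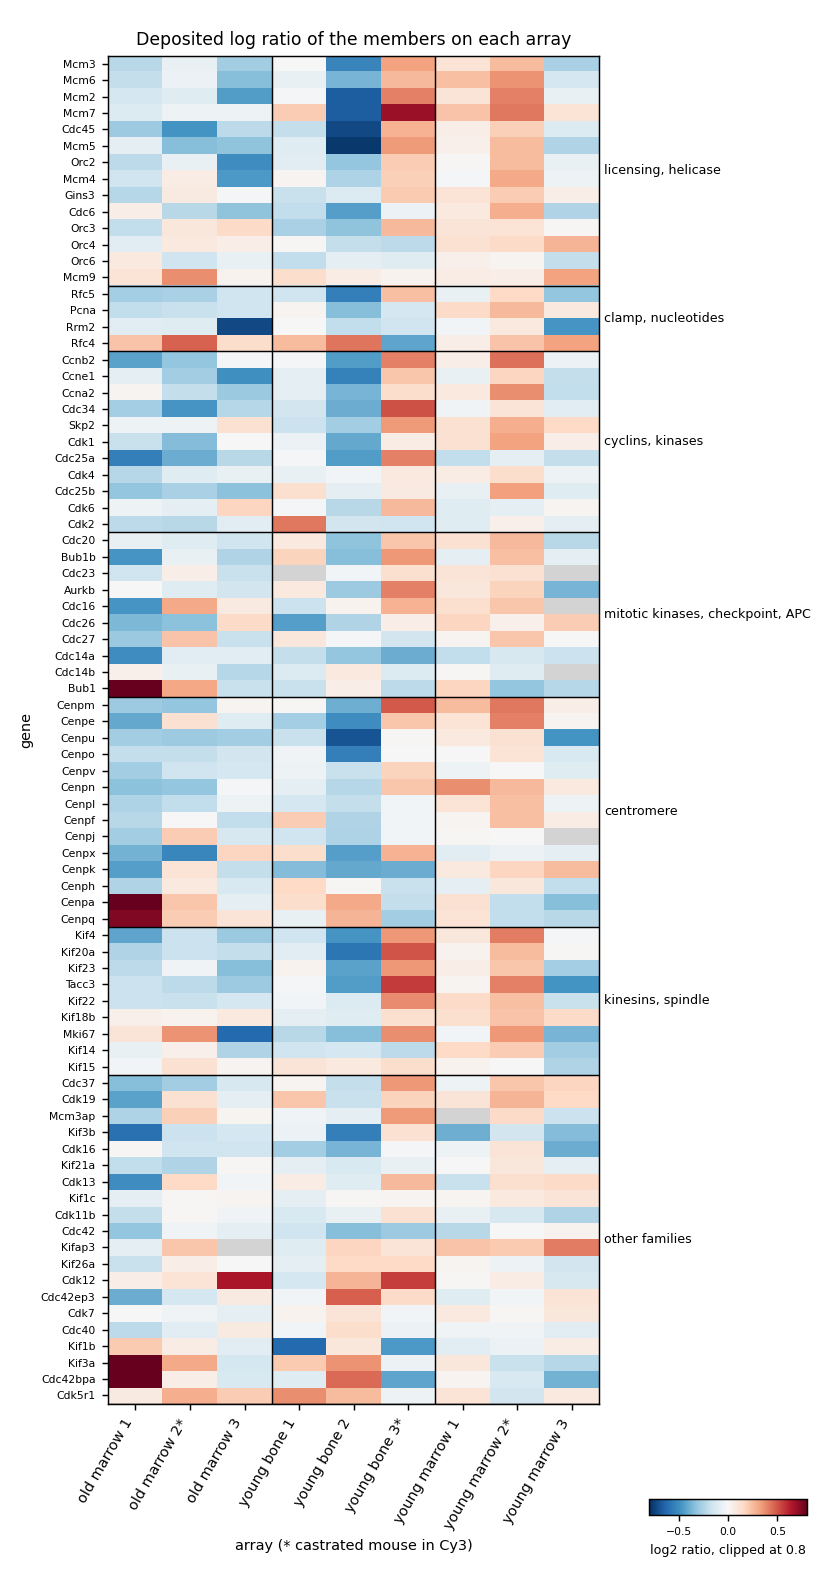
Each cell is the deposited log2 ratio of 1 of the 82 members (down the page, by role, and within a role by likeness to the median of the replication and mitosis genes) on 1 of the 9 arrays (across; an asterisk marks castrated in Cy3, grey marks no value, and the colour scale stops at 0.8 either side of 0). The upper rows of each role share 1 pattern, blue in old marrow and on young bone 2 and red on young bone 3 and young marrow 2, which Bub1, Cenpa, Cenpq and Rfc4 run against.

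**Figure D2:**
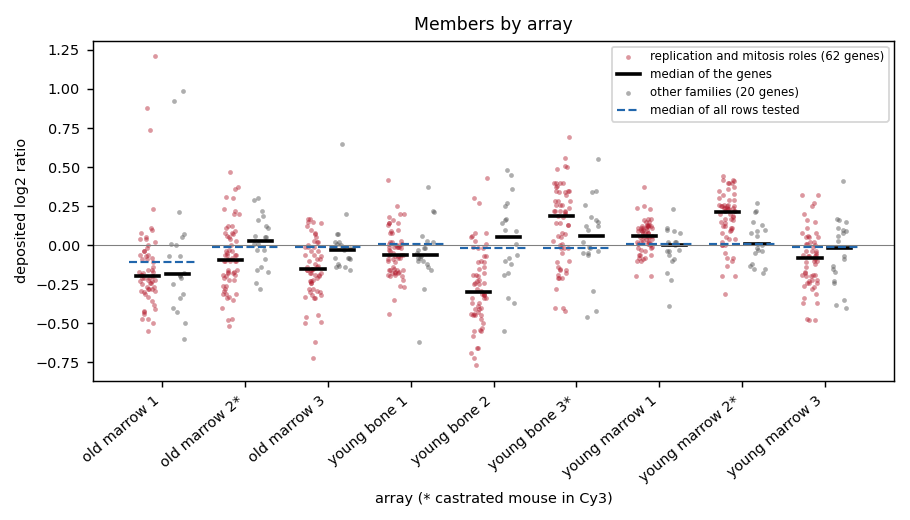
Points are genes and the vertical axis is the deposited log2 ratio on each of the 9 arrays, with the 62 replication and mitosis genes to the left and the 20 members of other families to the right. Black bars are the medians of the genes and dashed lines the medians of all rows tested. The left-hand medians run from -0.30 on young bone 2 to 0.21 on young marrow 2, farther from 0 than the dashed lines on every array.

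How closely a gene followed this profile was measured as Pearson's r over the 9 arrays between the gene and the median of the other replication and mitosis genes. It is a description only: the genes share the arrays, their dyes and their scaling. The median r was 0.76 for the 62 genes, 36 of them (58.1%) above 0.7. It was 0.22 for the members of other families, 3 of 20 (15.0%) above 0.7, and 0.11 for the other 7088 rows, 11.0% above 0.7. The closest were Kif4, a chromosome-bound kinesin (r = 0.98), Mcm3 and Mcm6 (0.95 each), the cytokinesis kinesin Kif20a (0.94) and Mcm2 (0.94). Mcm9, Cdc14b, Bub1, Cenpa, Rfc4 and Cenpq were the 6 with r below 0, from -0.22 to -0.69.

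The subunits of the helicase varied together. Over Mcm2 to Mcm7 the median was -0.15, -0.053 and -0.33 in old marrow, -0.008, -0.60 and 0.33 in young bone and 0.11, 0.33 and -0.10 in young marrow. Pairs of these 6 subunits correlated at a median r of 0.92 over the 9 arrays, and the lowest pair stood at 0.70. Mcm2 had -0.14, -0.10 and -0.45 in old marrow, -0.01, -0.66 and 0.40 in young bone and 0.10, 0.40 and -0.06 in young marrow. Its sister subunit Mcm7 had -0.11, -0.04 and -0.04 in old marrow, 0.20, -0.66 and 0.69 in young bone and 0.23, 0.42 and 0.11 in young marrow. Mcm7 was below 0 on all 3 old arrays and above 0 on all 3 young marrow arrays. It had the highest average of the 14 origin and helicase genes (0.155, SE 0.10, limma adjusted p = 0.548), but -0.20 under the channel reading. Orc2, a subunit of the origin recognition complex, stood at -0.21, -0.06 and -0.50 in old marrow and at 0.01, 0.25 and -0.06 in young marrow. Mcm9, which acts with Mcm8 in DNA repair and is no part of the replicative ring, was above 0 on all 9 arrays, from 0.03 to 0.37, as were 1.89% of all rows with 9 values. Its average was 0.135 (SE 0.060, limma adjusted p = 0.30) and -0.015 under the channel reading.

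**Figure D3:**
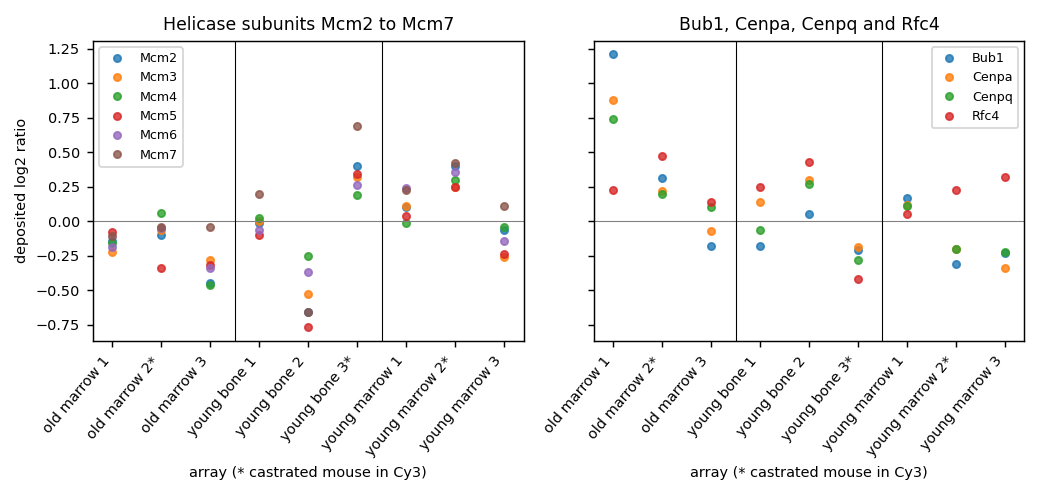
The vertical axis is the deposited log2 ratio and the horizontal axis the 9 arrays, an asterisk marking castrated in Cy3. In the left panel each colour is a subunit of the Mcm2 to Mcm7 ring, whose 6 points go up and down together from array to array. Their spread within an array is widest on young bone 2 (-0.77 to -0.25). In the right panel Bub1, Cenpa and Cenpq reach 1.21, 0.88 and 0.74 on old marrow 1, and Rfc4 is above 0 on every array but young bone 3.

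The clamp and nucleotide genes were 4. Pcna stood at -0.20, -0.18 and -0.16 in old marrow, at 0.02, -0.34 and -0.14 in young bone and at 0.15, 0.26 and 0.08 in young marrow. As deposited, its old and young marrow arrays did not overlap, but with old marrow 2 and young marrow 2 turned they did. Rfc5, a small subunit of the clamp loader, followed the common profile (r = 0.93), while its partner Rfc4 ran against it (r = -0.64). Rfc4 stood at 0.23, 0.47 and 0.14 in old marrow, at 0.25, 0.43 and -0.42 in young bone and at 0.05, 0.23 and 0.32 in young marrow, an average of 0.165 (SE 0.088, limma adjusted p = 0.422) and 0.072 under the channel reading. The average of Rfc4 was 0.058 without old marrow 2 and 0.32 without young bone 3. Rrm2, the radical subunit of ribonucleotide reductase, averaged -0.15 (SE 0.083, limma adjusted p = 0.427), with -0.72 on old marrow 3 and -0.47 on young marrow 3 as its lowest arrays.

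Over the 11 cyclins, their kinases and the phosphatases that switch them on, the median was -0.21, -0.26 and -0.09 on the old arrays, -0.053, -0.37 and 0.22 in young bone and -0.030, 0.17 and -0.070 in young marrow. Young bone 2 was the lowest array. Cdc25b, which activates Cdk1 at the entry to mitosis, stood at -0.31, -0.26 and -0.33 in old marrow, at 0.13, -0.07 and 0.07 in young bone and at -0.06, 0.33 and -0.10 in young marrow. As deposited, no array of a young group was as low as any old one, but with the sign of the swapped arrays turned the groups overlapped. Its fitted effect in old marrow was -0.27 (SE 0.093, limma adjusted p = 0.216), and -0.11 under the channel reading. Cdc25a, the phosphatase of S phase entry, stood at -0.55, -0.40 and -0.22 in old marrow, at -0.01, -0.45 and 0.40 in young bone and at -0.20, -0.08 and -0.19 in young marrow. Its old marrow effect was -0.35 (SE 0.13, limma adjusted p = 0.233; -0.076 with the swapped arrays turned), and its average, -0.15, was the lowest of the 11 genes. Cyclin B2 (Ccnb2) stood at -0.43, -0.31 and -0.01 in old marrow and at 0.05, 0.44 and -0.05 in young marrow, and Cdk1, its kinase, at -0.18, -0.35 and 0.00 in old marrow and at 0.12, 0.32 and 0.05 in young marrow. Skp2, which marks the inhibitor p27 for destruction, had the highest average (0.091, SE 0.064, limma adjusted p = 0.592), but -0.11 with the swapped arrays turned. Skp2 and cyclin E1 (Ccne1) were the 2 of 33 members with several features whose features differed in mean by over 0.2, from -0.10 to 0.20 for Skp2 and from -0.26 to 0.052 for Ccne1, so their gene values are uncertain. A mean over arrays can hide features that differ on single arrays. On old marrow 1 the features of Orc6 stood at -0.47 and 0.63 and those of Cenph at -0.63 and 0.14. A small gap in mean therefore does not make a gene value certain.

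The mitotic kinases, checkpoint proteins and anaphase promoting complex held the member with the smallest p of the average. Cdc14a, a phosphatase that reverses Cdk phosphorylation, stood at -0.50, -0.09 and -0.09 in old marrow, at -0.19, -0.31 and -0.40 in young bone and at -0.20, -0.13 and -0.17 in young marrow. It was the only member below 0 on all 9 arrays, where 2.41% of all rows with 9 values were. The average was -0.225 (SE 0.062, limma adjusted p = 0.0817), and -0.018 under the channel reading. It passed without old marrow 3 (-0.245, limma adjusted p = 0.0378), with no dye term (-0.23, 0.0368) and with arrays scaled to equal spread (-0.22, 0.0475). Cdc20, which activates the anaphase promoting complex, followed the common profile (r = 0.90), as did the checkpoint kinase Bub1b (0.86), with -0.47, -0.06 and -0.24 in old marrow. Bub1, its relative, stood at 1.21, 0.31 and -0.18 in old marrow, at -0.18, 0.05 and -0.21 in young bone and at 0.17, -0.31 and -0.23 in young marrow. Old marrow 1 and 2 were above every young array of Bub1, and old marrow 3 lay among the young arrays. Cdc16, a subunit of the anaphase promoting complex, had the highest average of these 10 genes (0.10, SE 0.076, limma adjusted p = 0.639), but -0.16 with the swapped arrays turned.

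The 14 centromere genes split. Cenpn, which reads the centromeric nucleosome, stood at -0.33, -0.31 and -0.01 in old marrow, at -0.07, -0.23 and 0.22 in young bone and at 0.37, 0.26 and 0.08 in young marrow. Cenpk, of the inner kinetochore, stood at -0.44, 0.11 and -0.19 in old marrow, at -0.35, -0.41 and -0.40 in young bone and at 0.08, 0.17 and 0.25 in young marrow. The young bone and young marrow arrays of Cenpk lay apart, all below 0 in bone and all above 0 in marrow. Its young bone effect was -0.36 (SE 0.10, limma adjusted p = 0.263), the smallest p of the members there, and -0.084 under the channel reading. Cenpe, the kinesin that lines up chromosomes, was the leading replication gene of young marrow by p (0.25, SE 0.098, limma adjusted p = 0.401), and Cenpu, another inner kinetochore protein, had the lowest average of the list (-0.18, SE 0.081, limma adjusted p = 0.316). Cenpm had the highest (0.071, SE 0.083, limma adjusted p = 0.784), but -0.13 with the swapped arrays turned. Cenpa, the histone variant that founds the centromere, and Cenpq ran the other way. Cenpa stood at 0.88, 0.22 and -0.07 in old marrow, against 0.12, -0.20 and -0.34 in young marrow. Cenpq stood at 0.74, 0.20 and 0.10 in old marrow, against 0.11, -0.20 and -0.22 in young marrow, with an old marrow effect of 0.305 (SE 0.13, limma adjusted p = 0.261). Cenpq was read from 1 feature, as were Bub1, Rfc4 and Kif3a. The 2 features of Cenpa stood at 0.6 and 1.15 on old marrow 1. Features of 1 gene could part on that array, at 0.63 and -0.47 for Orc6 and at 0.67, -0.21 and -0.67 for Ccne1. Whether the high values there belong to the gene or to the feature was not tested.

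Of the 9 kinesins and spindle genes, Kif4 carried the common profile most closely. It stood at -0.42, -0.17 and -0.30 in old marrow, at -0.16, -0.47 and 0.35 in young bone and at 0.09, 0.41 and -0.01 in young marrow. Its effect was -0.23 (SE 0.10, limma adjusted p = 0.271) in old marrow, -0.025 in young bone and 0.23 (SE 0.10, limma adjusted p = 0.484) in young marrow. Kif20a stood at -0.24, -0.17 and -0.19 in old marrow, at -0.09, -0.58 and 0.50 in young bone and at 0.03, 0.25 and 0.01 in young marrow. Both genes were below 0 on all 3 old arrays. Kif18b, which shortens spindle microtubules, was above 0 on all 3 young marrow arrays (0.13, 0.23 and 0.15) and had the highest average of the list (0.084, SE 0.049, limma adjusted p = 0.473). With the swapped arrays turned (the channel reading) that average was -0.046, and the young marrow effects of Kif4 and Cenpe were -0.11 and -0.099. Kif14, a kinesin of cytokinesis, had the lowest (-0.057, SE 0.063, limma adjusted p = 0.772).

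The 20 members of other families are kept apart because the symbol alone brought them in. Kif3b, which forms a cilium motor with Kif3a, averaged -0.21 (SE 0.072, limma adjusted p = 0.178), with values from -0.60 to 0.12. Kif3a, its partner, stood at 0.99, 0.30 and -0.14 in old marrow and between -0.23 and 0.36 on the young arrays. Cdc42 averaged -0.14 (SE 0.057, limma adjusted p = 0.24), and Kifap3, which joins Kif3 motors to their cargo, stood at 0.23, 0.21 and 0.41 in young marrow (effect 0.29, SE 0.10, limma adjusted p = 0.336). Cdk12, a kinase of transcription, had the highest average (0.18, SE 0.088, limma adjusted p = 0.37), led by 0.65 on old marrow 3, and was -0.061 under the channel reading. The axonal motor Kif1b gave -0.62, 0.09 and -0.46 in young bone (effect -0.34, SE 0.13, limma adjusted p = 0.448).

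Between old and young marrow most replication and mitosis genes differed in effect on one side of 0, without any member passing. Castration was done at 7 weeks in both age groups, and the mice were 59 or 17 weeks old when taken. Age therefore cannot be told apart from time since castration in this comparison, nor from any bone in the old specimens. The effect was below 0 in old marrow for 48 of the 62 replication and mitosis genes (57.8% of all rows), with a median of -0.13 against -0.039 over all rows. In young marrow it was above 0 for 46 of 62 (48.7% of all rows), with a median of 0.089 against -0.004. The difference, old marrow minus young marrow, was below 0 for 55 of 62 (58.6% of all rows), with a median of -0.19 against -0.057. It was below 0 for 13 of 14 origin and helicase genes, 3 of 4 clamp and nucleotide genes, 10 of 11 cyclin and kinase genes, 9 of 10 checkpoint genes, 12 of 14 centromere genes and 8 of 9 kinesin and spindle genes, and for 11 of the 20 members of other families. The same counts under the channel reading were 10 of 14, 3 of 4, 2 of 11, 7 of 10, 7 of 14 and 5 of 9, and 12 of 20. Both young and old values enter each of these counts, so the 3 counts are not independent. By limma 0 of 82 members passed and 0% of all rows did, and at an unadjusted p under 0.05 there were 1 member above and 10 below 0, against 9.22% and 5.5% of all rows. The largest differences below 0 were those of Kif4 (-0.46, SE 0.14) and Cenpn (-0.45, SE 0.16), each at a limma adjusted p of 0.338, as were Cdc25b (-0.36) and Pcna (-0.35). These 4 differences were -0.073 for Kif4, -0.073 for Cenpn, 0.037 for Cdc25b and -0.047 for Pcna under the channel reading. Bub1 (0.57, SE 0.29) and Cenpa (0.48, SE 0.23) lay farthest above 0, at limma adjusted p values of 0.358 and 0.345, and stood at 0.16 and 0.20 under the channel reading.

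**Figure D4:**
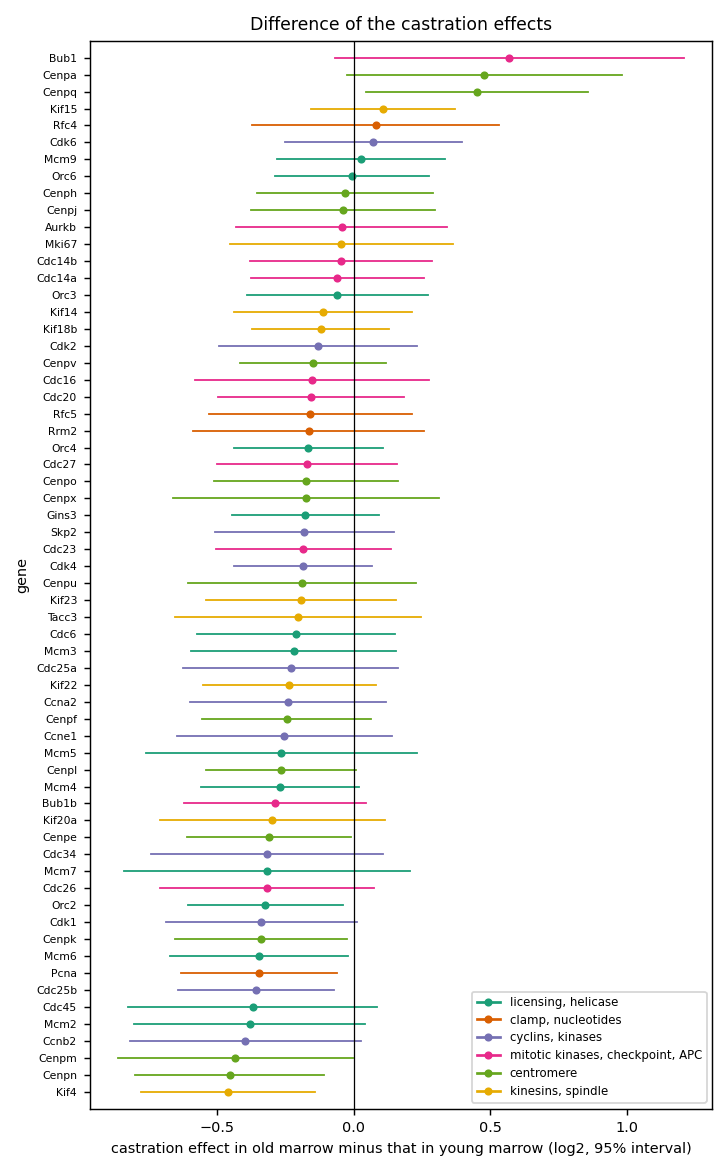
Points are the castration effect in old marrow minus that in young marrow (horizontal axis, log2) for the 62 replication and mitosis genes, ordered down the page, with bars as 95% intervals of the limma fit and colours for the roles. Of the points, 55 lie left of 0, from Kif4 at -0.46, and Bub1, Cenpa and Cenpq stand at the other end at 0.57, 0.48 and 0.45.

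The lean of old marrow was there on the unswapped arrays alone, where both readings agree by construction: 53 of 62 genes lay below 0 in old marrow (58.8% of rows) and 53 in the difference from young marrow (57.4% of rows). Young bone leaned alike there, with 53 of 62 genes below 0 (49.1% of rows) and a median of -0.164, against -0.174 in old marrow. Old marrow minus young bone had 34 genes above 0 and 26 below (46.7% and 52.4% of rows). Castrated RNA carried Cy5 on all of these arrays, so the effect of a group cannot be told apart from dye on them. The lean of young marrow above 0 was not there on the unswapped arrays. On its 2 unswapped arrays 27 of 62 genes lay above 0 (45.8% of rows), and under the channel reading 10 of 62 did (48.1% of rows). Under the channel reading 48 of 62 lay below 0 in old marrow (53.9% of rows) but only 34 of 62 in the difference (51.7% of rows). Without old marrow 1, the array of widest spread, 46 and 50 of 62 lay below 0 in old marrow and in the difference, and without old marrow 2 there were 36 and 51. On the deposited values, 30 of the 62 genes were below 0 on 3 of 3 old arrays, and 33 of the 81 members with values there, against 24.6% of all rows. Of the 58 such genes with 9 values, 23 were above 0 on both young swapped arrays and below 0 on 3 of 3 old arrays, against 8.41% of all rows, a pattern picked after the values were seen. In young bone 10 of 81 members were below 0 on 3 of 3 arrays and 2 were above, against 13.9% and 10.4% of all rows. Above 0 on 3 of 3 young marrow arrays were 18 of 58 of these genes with 3 values there, against 20.2% of all rows.

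Leaving out 1 old array changed which members passed. Without old marrow 3, Bub1 (0.76), Cenpa (0.55), Cenpq (0.47), Kif3a (0.645) and Cdc25a (-0.47) passed in old marrow by limma, 5 of 82 members where 16% of all rows then passed. In the difference from young marrow Bub1 (0.95), Cenpa (0.745), Cenpq (0.63), Kif3a (0.81) and Cenpn (-0.58) passed, where 10.6% of rows did. The first 4 genes of both lists had their highest value on old marrow 1, and of these Bub1, Cenpq and Kif3a were each read from 1 feature.

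Young bone set against young marrow asked how the tissue bore on the response. The effect of young bone minus that of young marrow was below 0 for 47 of 62 replication and mitosis genes (48.8% of all rows), with a median of -0.11 against 0.003, and for all 14 origin and helicase genes. By limma 0 members passed, against 0% of rows, and 4 lay below and 0 above 0 at an unadjusted p under 0.05, against 2.96% and 1.72% of rows. Cenpk (-0.55, SE 0.14, limma adjusted p = 0.934), Cenpe (-0.36), Orc4, of the origin complex (-0.31), and Pcna (-0.32) were these 4, at -0.17, -0.24, -0.072 and -0.052 under the channel reading. In that reading 50 of the 62 genes were below 0 (49.4% of rows). In young bone itself the 62 genes had a median of -0.001, and -0.165 under the channel reading. Old marrow minus young bone had a median of -0.078 and 0 of 82 members passed by limma, against 0.0139% of rows. The median became 0.12, with 40 of 62 genes above 0 (47.9% of rows), under the channel reading. Castrated over sham, Cdc25b (-0.34) was the 1 member below 0, with 0 above, at an unadjusted p under 0.05 (3.14% and 3.68% of rows).

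The dye term, which holds the part of the ratio that follows dye and not castration under the reading used, was below 0 for more of the genes than the effect of any group. It was below 0 for 54 of 62 genes (50.5% of all rows), with a median of -0.10 against -0.002. By limma 0 of 82 members passed, against 0% of rows, and 13 members lay below and 0 above 0 at an unadjusted p under 0.05, against 4.17% and 2.29% of rows, led by Mki67 (-0.30, SE 0.079), Cenpe (-0.22), Kif4 (-0.20) and Mcm4 (-0.17), each at a limma adjusted p of 0.742. Under the channel reading this term becomes the average castration effect, so 54 of 62 genes then had an average below 0 (50.7% of rows), with a median of -0.098. The unswapped arrays alone, all with castrated RNA in Cy5, gave 55 of 62 below 0 (52.5% of rows) and a median of -0.11. The B lineage and granulocyte medians kept 1 sign over both orientations, and the median of these 62 genes did not: it was below 0 on 5 of the 6 unswapped arrays, above 0 on 2 of the 3 swapped arrays and below 0 on old marrow 2.

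**Figure D5:**
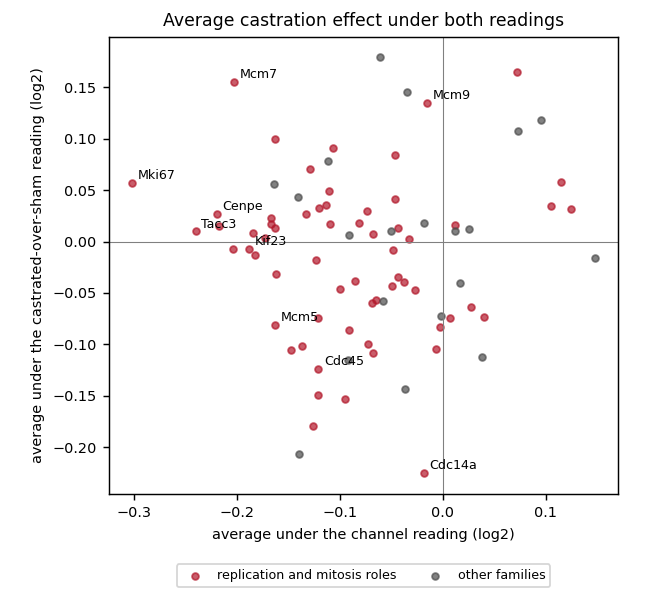
Each point is a member, with its average castration effect (log2) under the channel reading on the horizontal axis and under the castrated-over-sham reading on the vertical axis, red for the 62 replication and mitosis genes and grey for the other families. Most red points lie left of 0, with a median of -0.098, while on the vertical axis they spread about 0, with a median of -0.003.

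Genes of the same processes outside the symbol families gave a like picture, with a weaker lean of the spindle list in old marrow. Of 20 spindle, chromosome and cytokinesis genes, 1 passed in the average, about the share of all rows (3.91%). It was Mis12, which anchors the outer kinetochore (0.42, SE 0.082, limma adjusted p = 0.0213), and it stood at -0.23 under the channel reading. Mad2l1, a checkpoint protein (-0.098), and Trip13, which recycles it (-0.11), came next by p. In young marrow 18 of the 20 genes were above 0 (48.7% of all rows), with a median of 0.15. In old marrow minus young marrow 16 lay below 0 (58.6% of all rows), with a median of -0.23. By limma 0 passed in either (0.739% and 0% of all rows). With the swapped arrays turned 5 were above 0 in young marrow (median -0.068, 48.1% of all rows above 0). In the difference 6 were then below 0 (median 0.038, 51.7% of all rows below 0). In old marrow itself 13 of the 20 lay below 0 (57.8% of all rows), with a median of -0.067 against -0.039 over all rows. The channel reading gave 10 below 0 there (53.9% of all rows), with a median of 0.006. None of 5 DNA synthesis genes passed, Timeless (0.074), Rpa2 (0.047) and Prim1 (-0.040) having the smallest p of the average, and none of 14 G1 control genes, led by Tfdp1, the partner of E2F (-0.16), the inhibitor Cdkn1a (0.16) and cyclin D3 (Ccnd3, -0.10). In old marrow 4 of these 5 and 13 of these 14 genes lay below 0, and 4 and 7 under the channel reading (57.8% and 53.9% of all rows). The medians of the spindle, DNA synthesis and G1 lists followed that of the 62 genes over the 9 arrays with r = 0.92, 0.90 and 0.83.

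Markers of the cell types in bone and marrow were set beside the profile. The median of 4 erythroid genes (Hbb-b1, Kel, Fech and Tfrc) was 0.125, 0.060 and -0.505 in old marrow, -0.069, -0.32 and 0.13 in young bone and 0.014, 0.475 and -0.35 in young marrow, and followed the 62 genes with r = 0.68 over 9 arrays. The 4 genes did not share a sign on any array, with 1 to 3 of them above 0. In the dye term 3 lay below 0 and 1 above at an unadjusted p under 0.05 by limma (4.17% and 2.29% of all rows). The median of 7 B lineage genes lay between 0.72 and 1.15 on all 9 arrays (r = 0.25) and that of 8 granulocyte genes between -0.265 and -0.625 (r = 0.10), so neither changed sign where the replication genes did. The median of 6 skeletal muscle genes was 1.04, 0.155 and 0.31 in old marrow, -1.36, -0.195 and -0.60 in young bone and -0.078, 0.040 and -0.090 in young marrow (r = -0.30), and that of 7 bone matrix genes ran from -0.305 on old marrow 1 to 1.28 on young bone 2 (r = -0.31). The part of red cell precursors, of muscle and of bone matrix in the values of the replication and mitosis genes was not tested.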

How the data were processed

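The deposited values of 9 two-colour arrays were log ratios made by the authors and were read as log2. Normalization, log base and direction are not given in the sources used here. Array means lay within 0.0021 of 0. The file held 11552 features, of which 8050 had 1 gene by the platform annotation, 672 several and 2830 none, and for 7880 of the 8050 the gene ID was in the RefSeq table. Features of a gene were averaged, and 8885 features with values on at least 2 arrays of each group and on at least 1 swapped array were kept, giving 7170 rows. Members and gene lists were chosen with earlier results of these data known.

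Castration effects were fitted with limma 3.58.1 (R 4.3.3), with 1 coefficient per group and a dye term over the 9 arrays, missing values left out row by row. Benjamini-Hochberg adjustment ran over all 7170 rows, with a threshold of 0.05, and intervals are 95% intervals. Because the dye term is fitted, a group's effect can differ from the mean of its arrays. The precision is limited by 3 arrays in a group. On simulated data (7170 rows, 100 rows changed per size) the average recovered 87% of changes of 0.5 and 100% of changes of 1 (log2), old marrow 55% and 93%, young bone 52% and 92%, and young marrow 42% and 88%. The simulated rows were independent, each with the same spread on every array. Old marrow 1 had a wider spread (SD 0.458) and the measured rows moved together, so these rates need not hold for the measured values.

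Replicate numbers were checked for pairing. Deviations of same-numbered arrays correlated at 0.606, 0.279 and 0.294 between old and young marrow, replicate 2 of both being swapped, at -0.036, -0.105 and 0.399 between old marrow and young bone, and at -0.098, -0.365 and -0.062 between young bone and young marrow. Named genes were the 5 markers, any member passing a test, the 4 smallest p in each group, the average and the dye term, the highest and lowest average of each role, and the 3 smallest p of each other pathway list. Other members named were chosen after their values were seen. Alternatives covered the direction, unswapped arrays, dye term, centring, scaling, missing values, single features, the replicate block and each array left out. Promoters came from RefSeq (GRCm38.p6), where 75 of 82 members matched.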

Additional observations from a re-analysis of the deposited data

Results flagged for a closer look

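In 5 genes every array of one group lay on one side of 0 and every array of another on the opposite side, although the limma test of the difference itself did not pass. Old marrow was below 0 and young marrow above 0 on all 3 arrays for Cenpn (difference -0.453, adjusted p = 0.338), Kif20a (-0.297, adjusted p = 0.434), Mcm7 (-0.317, adjusted p = 0.501) and Pcna (-0.347, adjusted p = 0.338). Young bone was below 0 and young marrow above 0 on all 3 arrays for Cenpk (-0.553, adjusted p = 0.934). For these genes the sign on 1 swapped array of each group rests on the castrated-over-sham reading. Of all rows, 24.6% were below 0 on all 3 old marrow arrays and 20.2% above 0 on all 3 young marrow arrays. In young bone 13.9% were below 0 on all 3. The share of rows with both signs at once was not counted, so 5 genes cannot be read as more than other rows would give. For Mcm7, 1 of its features stood at 0.02 on old marrow 2.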

How the results depend on the processing

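Of the single alternatives, the reading of the 3 swapped arrays reversed the most named values, 12, and the 9 fits that leave out 1 array reversed 12 between them. Under the channel reading the median of the 82 members in young marrow was -0.044, 10 of the 62 replication and mitosis genes were above 0 in young marrow and 34 below 0 in old marrow minus young marrow. The averages of Cdc16 (-0.163), Cdk12 (-0.061), Cenpm (-0.129), Mcm7 (-0.203), Mcm9 (-0.015), Skp2 (-0.107) and Tacc3 (-0.24), the young marrow effect of Kif18b (-0.011), the young bone effect of Kif1b (0.014) and the dye terms of Cenpe (0.027), Mcm4 (0.017) and Mki67 (0.057) changed sign. On the unswapped arrays alone 27 genes were above 0 in young marrow, and the averages of Cdc16 (-0.047), Cenpm (-0.058), Mcm7 (-0.048), Skp2 (-0.016) and Tacc3 (-0.23) changed sign. With no dye term 1 member passed in the average (Cdc14a) and Tacc3 averaged -0.07, and with arrays scaled to equal spread 1 member passed (Cdc14a). Kif23 averaged 0.008 after median centring and 0.028 with the replicate block, which left 0 members passing in every comparison. The cause of these changes was not tested.

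With 1 array left out, members passing ranged from 0 to 1 in the average, 0 to 5 in old marrow and 0 to 5 in old marrow minus young marrow, all calls arising without old marrow replicate 3, and were 0 in the other comparisons and the dye term. The average of Tacc3 ranged from -0.068 to 0.125, of Kif23 from -0.051 to 0.032, of Cenpm from -0.035 to 0.179 and of Mcm5 from -0.193 to 0.036. Without changing sign, Rfc4 ranged from 0.058 to 0.319, Cdc45 from -0.248 to -0.006, Mcm7 from 0.026 to 0.246 and Skp2 from 0.004 to 0.162, the extremes arising without old marrow 2 or young bone 3. Genes below 0 in old marrow ranged from 36 to 54 of 62, genes above 0 in young marrow from 37 to 52, and genes below 0 in the difference from 50 to 55. Rows passing in the average were 280, 70 on the unswapped arrays, 0 under the channel reading and 74 to 463 with 1 array left out. In old marrow they were 61, against 5, 0 and 4 to 1150 under the same changes and 6 after array scaling. In young marrow they were 53, against 0, 0 and 0 to 108, and 108 after array scaling. In young bone they were 23, against 0, 0 and 0 to 64, 38 with no dye term, 1 after array scaling and 45 with the replicate block.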
